A study of Drosophila melanogaster with 6 samples.

Results

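The genes described here build heparan sulphate proteoglycans, proteins of the cell surface that carry long sulphated sugar chains. The rule named 10 genes: sgl, ttv, sotv, botv, sfl, dally, dlp, Hsepi, Hs2st and Hs6st. A probeset is a group of short array probes that reads 1 transcript, and only probesets listed under 1 gene symbol were taken. That gave 8 probesets of 8 genes, 1 for each gene, of 18952 probesets on the array. The probeset of sotv is also listed under CG10731 and was left out of the counts, and dally has no probeset listed under its symbol. sgl was picked because it was lower in the mutant, so its values are a description. The other genes were chosen by their role in the pathway, with earlier results of these data known.

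Heparan sulphate is made in the Golgi. A sugar linker is placed on a core protein, polymerases extend it with alternating glucuronic acid and N-acetylglucosamine, and other enzymes then add sulphate groups and convert some of the uronic acids. In Drosophila embryos and imaginal discs, loss of some of these enzymes or of the glypican cores disturbs signalling by proteins that bind the chains. These are Wingless, Hedgehog, Decapentaplegic and the fibroblast growth factors.

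RNA was extracted from whole female third-instar larvae on 6 Affymetrix Drosophila Genome 2.0 arrays, 3 per group, with 50 larvae pooled in each independent preparation. The mutants had the genotype roX1SMC17ADf(1)52; [w+4D4.3] and lacked both roX RNAs, the noncoding RNAs of the dosage compensation complex. The controls carried the same alleles and the same w+ transgene, whose name is spelled differently in 1 label field, and in addition [hsp83-roX1+], a roX1 transgene on the promoter of the heat shock gene hsp83. The control is therefore a rescued mutant and not an unmodified strain, and other differences between the stocks are not described in the labels.

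Values are log2 expression values, and a difference is mutant minus control, so that a negative value means a lower level in the mutant. Array medians were 5.409, 5.427 and 5.441 in mutants and 5.449, 5.448 and 5.443 in controls, so they did not overlap between the groups. Correlations between arrays ran from 0.990 to 0.998. The 40% of probesets with the lowest mean level were not tested, and all 8 probesets of the pathway passed this filter. A probeset was called at a limma adjusted p under 0.05. Over all 11261 tested probesets 62 were called, or 0.551%, with 40 higher (0.355%) and 22 lower (0.195%). The groups did not overlap, meaning that all 3 mutant values lay on one side of all 3 control values, on 16.3% of tested probesets, 9.33% with the mutants lower and 7% with the mutants higher. The precision is limited by the number of arrays.

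sgl (sugarless), on chromosome arm 3L, encodes UDP-glucose dehydrogenase, the enzyme that makes the UDP-glucuronic acid from which the chains are polymerised. Its level was 9.88, 9.68 and 9.91 on the 3 mutant arrays and 10.41, 10.60 and 10.44 on the 3 control arrays. The groups did not overlap, and the gap of 0.50 between the highest mutant and the lowest control value was wider than the range within the mutants (0.22) or the controls (0.19). The means were 9.82 ± 0.12 in mutants and 10.48 ± 0.10 in controls (SD, n = 3 per group), a difference of -0.66 on the log2 scale, or 1.58-fold lower in the mutant. sgl is thus 1 of the 22 probesets called lower, which are 0.195% of those tested, and this is why it was picked. Among the 62 called probesets it was the 61st by p, and it was no longer called without any 1 of the 6 arrays, with differences from -0.70 (without mutant replicate 3) to -0.59 (without mutant replicate 2). With all 6 arrays the call was also lost with array medians centred (limma adjusted p = 0.0512) and with the replicate number as a block (0.188). In whole larvae, fewer cells of a type and less RNA per cell cannot be told apart. The 3' minus 5' difference of the actin control probesets, which grows as RNA degrades, was 0.77, 0.94 and 0.90 in mutants and 0.72, 0.70 and 0.74 in controls, so it too did not overlap between the groups. For the GAPDH control probesets the means were 1.38 in mutants and 1.38 in controls. The part of RNA quality in the sgl values was not tested.

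None of the other 7 genes was called, and their differences lay between -0.12 and 0.23. Adjusted p-values in limma's fit over all tested probesets ran from 0.681 to 0.987, and 0 of the 7 had an unadjusted p under 0.05, against 9% of all tested probesets. The 95% intervals of their differences reached from -0.49 (botv) at the lowest to 0.70 (sfl) at the highest. Differences within each gene's interval, in either direction, are not excluded. The difference of sgl was picked for its fall, so it is no yardstick for these 7 genes. The median over the 8 genes was -0.019, and 0.0054 without sgl, beside -0.0049 over all 8883 tested genes. The median over the 8 genes changed sign with the setting: it was 0.049 without mutant replicate 3, -0.043 without control replicate 3, 0.0089 with array weights and 0.0018 with array medians centred.

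**Figure D1:**
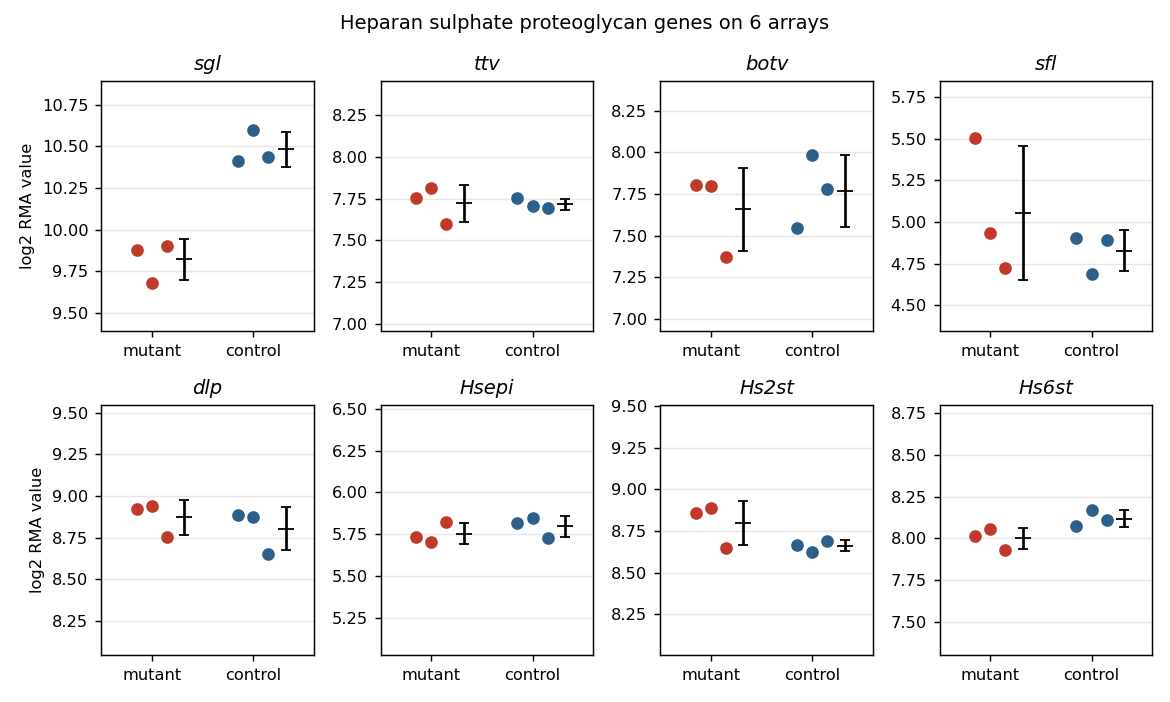
Log2 expression of the 8 genes on the 3 mutant arrays (red) and 3 control arrays (blue). Each point is an array, in the order replicate 1 to 3, black bars are mean ± SD, and every panel spans the same width of the log2 scale. sgl is the only gene of the 8 with a wide gap between the groups (0.50), and Hs6st has a gap of 0.018.

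The chain polymerases are the Drosophila members of the EXT family, known in humans from hereditary multiple exostoses. ttv (tout-velu), on 2R, acts with sotv in extending the chain. Its level was 7.75, 7.81 and 7.60 in mutants and 7.75, 7.70 and 7.69 in controls. The groups overlapped, and the difference was 0.0054 (95% interval -0.19 to 0.20, limma adjusted p = 0.987). botv (brother of tout-velu), also on 2R, adds the first N-acetylglucosamine to the linker. Its level was 7.80, 7.80 and 7.37 in mutants and 7.55, 7.98 and 7.78 in controls, with mutant replicate 3 lowest and control replicate 2 highest. The difference was -0.11 (-0.49 to 0.27, limma adjusted p = 0.858), and without mutant replicate 3 it was 0.030. The probeset shared by sotv and CG10731 read 7.65, 7.38 and 7.21 in mutants and 7.23, 7.23 and 7.23 in controls, a difference of 0.18 (limma adjusted p = 0.696) that cannot be assigned to either gene.

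The modifying enzymes act on the chain after polymerisation, and sfl (sulfateless) comes first, as the N-deacetylase and N-sulphotransferase of glucosamine. sfl lies on 3L, and its level was 5.50, 4.94 and 4.73 in mutants and 4.91, 4.69 and 4.89 in controls. Mutant replicate 1 stood above the other 5 arrays, which overlapped. The difference was 0.23 (95% interval -0.24 to 0.70, limma adjusted p = 0.753), the least precise of the 8 with an SE of 0.20. Without mutant replicate 1 the difference was 0.0033.

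Hsepi, on 2R, is the epimerase that turns glucuronic into iduronic acid. It read 5.73, 5.70 and 5.82 in mutants and 5.82, 5.85 and 5.73 in controls, and the groups overlapped (difference -0.044, 95% interval -0.22 to 0.13, limma adjusted p = 0.884).

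Hs2st, on 2L, puts sulphate on the uronic acid, and Hs6st, on 3R, puts it on glucosamine. Hs2st read 8.86, 8.89 and 8.65 in mutants and 8.67, 8.63 and 8.69 in controls. Mutant replicates 1 and 2 were above all controls and replicate 3 lay among them, which gave a difference of 0.14 (95% interval -0.072 to 0.34, limma adjusted p = 0.693). Hs6st read 8.01, 8.05 and 7.93 in mutants and 8.07, 8.17 and 8.11 in controls. It was the only one of the 7 whose groups did not overlap, against 9.33% of all tested probesets in this direction, by a gap of 0.018 that was smaller than its SD within groups (0.063 in mutants, 0.050 in controls). The difference was -0.12 (-0.29 to 0.056, limma adjusted p = 0.681). The signs of these 2 differences were opposite, and both kept their sign in all 13 alternative settings, as did those of sfl, Hsepi and sgl. Other filters, the replicate block and the trended robust prior leave a difference of group means unchanged. Only the remaining settings could have changed a sign.

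dlp (dally-like), on 3L, encodes a glypican, a core protein held in the membrane by a lipid anchor. Its level was 8.92, 8.94 and 8.75 in mutants and 8.88, 8.87 and 8.65 in controls. Replicate 3 was the lowest array in each group, and the groups overlapped (difference 0.068, 95% interval -0.16 to 0.30, limma adjusted p = 0.860).

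The other genes of the pathway were read from lists of 72 genes, of which 56 had a probeset of their own and 50 were tested by their brightest one. None was called with limma (smallest adjusted p = 0.383), and 4 had an unadjusted p under 0.05, against 9.06% of all 8883 tested genes, of which 0.529% were called. The groups did not overlap for 11 of the 50 genes, 6 lower and 5 higher, or 22.0%, against 16.3% of all tested genes. The median difference was -0.052.

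Enzymes and carriers that supply the sugar and sulphate donors showed differences between -0.082 and 0.23 over 8 tested genes, with a median of 0.063 and 0 called. The Golgi transporters of the sulphate donor PAPS, sll (slalom) and Papst2, both had mutant values above all control values. The gaps were 0.012 and 0.014, and 7% of all tested probesets did not overlap in this direction. Gfat2, of the same list, had mutant values below all control values (difference -0.082, limma adjusted p = 0.752). sll read 7.81, 7.99 and 7.85 in mutants and 7.77, 7.80 and 7.74 in controls (difference 0.11, limma adjusted p = 0.702). For Papst2 the means were 8.06 ± 0.063 against 7.95 ± 0.036 (SD, n = 3 per group; difference 0.11, limma adjusted p = 0.698). Efr, a nucleotide sugar transporter, had 0.23 (limma adjusted p = 0.707), with control replicate 1, at 8.54, below the other 5 arrays. Papss, which makes PAPS, had 0.055.

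UGP, UDP-glucose pyrophosphorylase, makes the substrate of the sgl enzyme. Its only probeset was too dim to be tested, with 3.47, 3.31 and 3.64 in mutants and 3.79, 4.72 and 3.87 in controls. All 3 control values were above the mutant values, and control replicate 2 stood apart from the rest. With no filter on level its difference was -0.66 (95% interval -1.21 to -0.10, limma adjusted p = 0.582).

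The linker between core protein and chain is built by oxt, beta4GalT7, beta3GalTII and GlcAT-I. Of the 6 linker genes tested, 0 were called, and the median difference was 0.080, which was 0.038 without mutant replicate 1 and 0.028 without control replicate 1. beta4GalT7, which adds the first galactose, read 8.41, 8.51 and 8.40 in mutants and 8.16, 8.23 and 8.29 in controls, with no overlap (difference 0.22, 95% interval 0.036 to 0.40, limma adjusted p = 0.467). beta3GalTII, which adds the second galactose, had 0.095 (limma adjusted p = 0.778). GlcAT-I, which transfers glucuronic acid from the sgl product to the linker, had -0.032 (-0.20 to 0.14), and its relative GlcAT-P had -0.18 (limma adjusted p = 0.631). oxt, the xylosyltransferase that starts the linker, had 0.078 (limma adjusted p = 0.845).

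Other core proteins, and enzymes that modify or release the chains or glypicans, had differences between -0.24 and 0.14 over 8 tested genes, and 0 were called. The syndecan gene Sdc had 0.14 (limma adjusted p = 0.719), the perlecan gene trol -0.086 (limma adjusted p = 0.872), and Cow, a secreted proteoglycan that binds Wingless, -0.18 (limma adjusted p = 0.679). wdp, the core of a chondroitin sulphate proteoglycan, had -0.21 (limma adjusted p = 0.634). Hs3st-B, a sulphotransferase of glucosamine, had -0.24 (95% interval -0.49 to 0.0073, limma adjusted p = 0.563). The endosulphatase gene Sulf1 had -0.073 (limma adjusted p = 0.874), and Notum, a secreted lipase that removes the lipid from Wingless, had -0.0038 (limma adjusted p = 0.992). Chsy, which polymerises chondroitin from the same UDP-glucuronic acid, had -0.23 (limma adjusted p = 0.619).

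**Figure D2:**
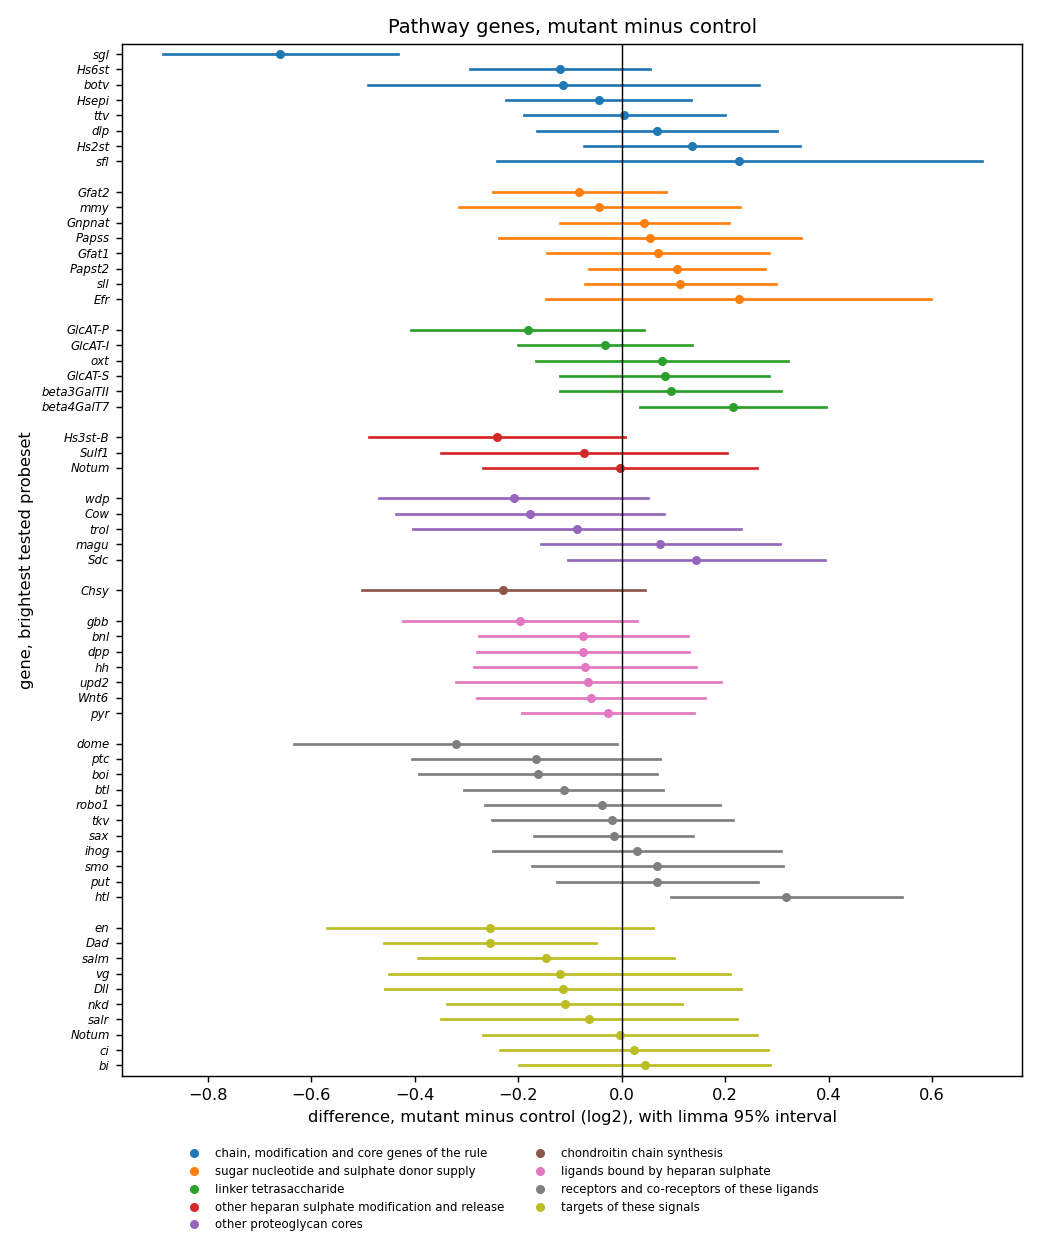
Difference between mutant and control (log2) for each tested gene of the pathway, with limma's 95% interval, coloured by list. sgl, picked for its fall, lies at -0.66, and the lowest value of the other genes is the -0.32 of dome. Notum stands under 2 lists.

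Ligands that bind the chains were described by 7 tested genes of 15 listed, all with a difference below 0 and none called. The largest was that of gbb, a bone morphogenetic protein, with 9.57, 9.59 and 9.49 in mutants and 9.92, 9.67 and 9.65 in controls (difference -0.20, limma adjusted p = 0.609). bnl, the fibroblast growth factor of the tracheal system, had -0.074 (limma adjusted p = 0.819), and dpp had -0.074 (limma adjusted p = 0.823). hh, the Hedgehog ligand, had -0.071 (limma adjusted p = 0.837). The median was -0.071, and without control replicate 1 it was -0.052, with 5 of 7 below 0.

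Of 11 tested receptors and co-receptors, 0 were called. The fibroblast growth factor receptor gene htl (heartless) read 7.98, 8.24 and 8.05 in mutants and 7.68, 7.81 and 7.82 in controls, with no overlap (difference 0.32, 95% interval 0.095 to 0.54, limma adjusted p = 0.383). dome, the receptor of the Upd cytokines, read 7.66, 7.65 and 7.50 in mutants and 8.15, 7.96 and 7.67 in controls (difference -0.32, -0.63 to -0.0081, limma adjusted p = 0.540). boi, a Hedgehog co-receptor, had -0.16 (limma adjusted p = 0.675). The Decapentaplegic receptor gene tkv had -0.018 on its brighter tested probeset (limma adjusted p = 0.966) and -0.27 on the dimmer one (0.731). The median of the list was -0.018 and changed sign under some settings.

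Target genes of these signals had a median of -0.11 over 10 tested genes, with 8 below 0 and 0 called. Dad, an inhibitor induced by Decapentaplegic, read 8.97, 8.93 and 8.73 in mutants and 9.12, 9.15 and 9.12 in controls, with no overlap (difference -0.25, 95% interval -0.46 to -0.050, limma adjusted p = 0.456). en (engrailed) had -0.25 (limma adjusted p = 0.634), salm (spalt major) had -0.15 (limma adjusted p = 0.714), and nkd, which Wingless induces, had -0.11 (limma adjusted p = 0.754). The list's median deviation from the mean of the 6 arrays reached 0.20 for control replicate 1, -0.20 for mutant replicate 3, and -0.058 to -0.0017 for the other 4 arrays. Without control replicate 1 the median difference was 0.013, with 4 of 10 below 0.

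Tissue markers also separated single arrays. On control replicate 1 the median deviation was 0.15 for 5 imaginal disc markers, 0.19 for 3 neuronal markers and -0.50 for 4 muscle markers. On mutant replicate 3 these medians were -0.090, -0.20 and 0.41. For the disc markers the lowest array was control replicate 3 (-0.18). The disc list shares vg and Dll with the target list. The mean level of the disc markers was 6.42 to 6.53 in mutants and 6.39 to 6.67 in controls, that of the neuronal markers 5.60 to 5.78 and 5.65 to 5.87, and that of the muscle markers 11.26 to 11.69 and 10.55 to 11.54. These ranges overlapped between the groups, and the part of tissue composition in the values of targets and ligands was not tested.

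**Figure D3:**
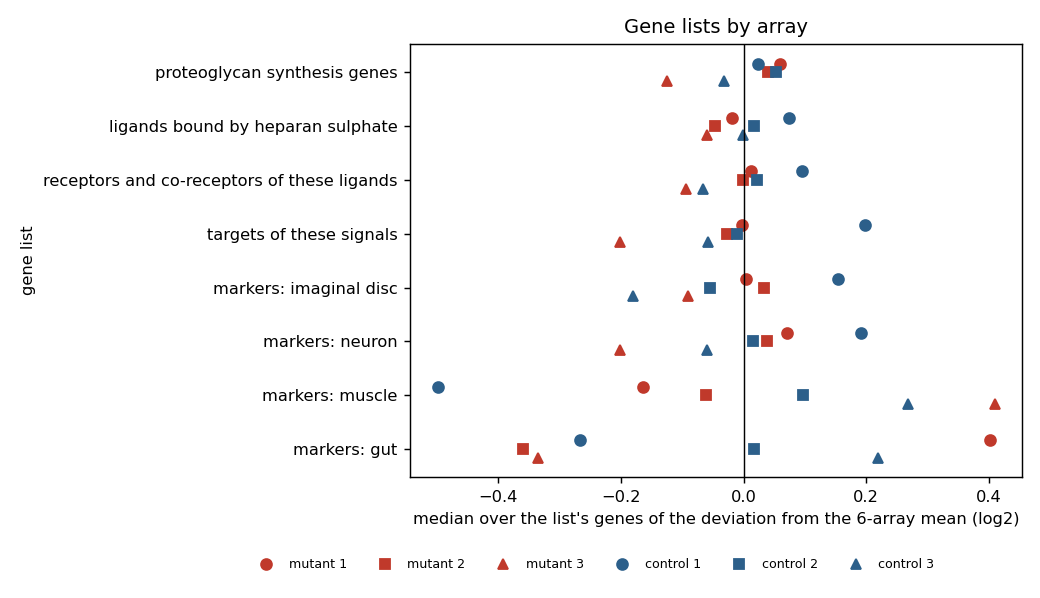
Median over each list's tested genes of the deviation from the mean of the 6 arrays (log2), for mutant (red) and control (blue) arrays, with a symbol for each replicate. Control replicate 1 is highest for the targets (0.20) and neuronal markers (0.19) and lowest for the muscle markers (-0.50), while mutant replicate 3 lies at the opposite end for these 3 lists.

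Among the other tissue lists no gene was called. The crystal cell genes PPO2 and PPO1, which encode prophenoloxidases, had differences of -0.98 (limma adjusted p = 0.282) and -0.81 (limma adjusted p = 0.451), while the other 4 of 6 blood cell markers lay between -0.13 and 0.11. Without control replicate 1 PPO2 was called (-1.24, limma adjusted p = 0.0469). The blood cell list's mean level was 9.39 to 9.51 in mutants and 9.67 to 9.90 in controls, with no overlap. PPO2 was the only gene of this list whose own groups did not overlap. The list's median deviation did overlap, with -0.18 to 0.13 in mutants and -0.059 to 0.10 in controls. For 3 fat body markers the mean level was 14.05 to 14.09 in mutants and 13.89 to 14.04 in controls, which did not overlap either. Mean levels in mutants and controls were 14.15 to 14.16 and 14.08 to 14.23 for 5 salivary gland markers. For 5 gut markers they were 10.85 to 11.44 and 10.70 to 11.59. In the fat body list Fbp1 had 0.28 (limma adjusted p = 0.485), and Lsp2 (0.026) and Fbp2 (0.030) overlapped between the groups. Of 8 listed male genes, 6 had a probeset and 4 of these were too dim to be tested, among them the Y-linked kl-2 and ORY. The testis gene Mst87F was above the filter in both groups and had -0.55 (limma adjusted p = 0.176). Mst98Ca, the other tested male gene, had -0.12 with overlapping groups (limma adjusted p = 0.732). Their mean level was 6.16 to 6.35 in mutants and 6.49 to 6.74 in controls, with no overlap. With array weights Mst87F, PPO2 and PPO1 were called (limma adjusted p = 0.0423, 0.0143 and 0.0247), as were 2.06% of all tested probesets. The part of blood cell, fat body, gut or male tissue content in the sgl values was not tested.

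Arm 3L holds 30 of the 51 called probesets with 1 gene name, or 1.57% of the 1906 tested there, against 0.530% of all 9619 tested probesets with 1 gene name. On this arm sgl was set beside its 5 nearest tested genes on each side in the RefSeq gene order. None of these 10 genes was called (smallest limma adjusted p = 0.194), 6 differences were below 0 and 4 above, and the range was -0.77 to 0.47. For 4 of the 10, Mp, CG10077, Surf1 and Mis12, or 40%, the groups did not overlap, against 16.3% of all tested genes. The largest was that of Mp, the 5th tested gene on one side, which encodes multiplexin, a collagen whose vertebrate relative carries heparan sulphate. Mp read 8.58, 8.31 and 8.42 in mutants and 9.55, 9.19 and 8.89 in controls, with no overlap (difference -0.77, 95% interval -1.18 to -0.36, limma adjusted p = 0.194). Mis12, a kinetochore gene and the nearest tested gene on the same side, had 0.47 (limma adjusted p = 0.520). Surf1, a cytochrome oxidase assembly gene, is the direct neighbour on the other side, and its gene model overlaps that of sgl at the end. Surf1 read 8.15, 8.15 and 8.03 in mutants and 8.19, 8.42 and 8.36 in controls (difference -0.21, limma adjusted p = 0.551).

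The remaining neighbours also differed in sign. CG10077 had -0.27 with no overlap between the groups (limma adjusted p = 0.563), and CG9953 had 0.20 (limma adjusted p = 0.600). Uqcc1, an assembly factor gene of the respiratory chain, had 0.19 (limma adjusted p = 0.648), and bin (biniou), a forkhead gene of the visceral mesoderm, had -0.17 (limma adjusted p = 0.739). tow had -0.16 (limma adjusted p = 0.733) and the G protein gene Galphai 0.0078 (limma adjusted p = 0.984). CG14820 had -0.72 (limma adjusted p = 0.761), with control replicate 1, at 6.72, below the other 5 arrays, and without that array it was called (-1.54, limma adjusted p = 0.0145). The pathway gene sfl lies 17 tested genes from sgl on the same arm and had the opposite sign.

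**Figure D4:**
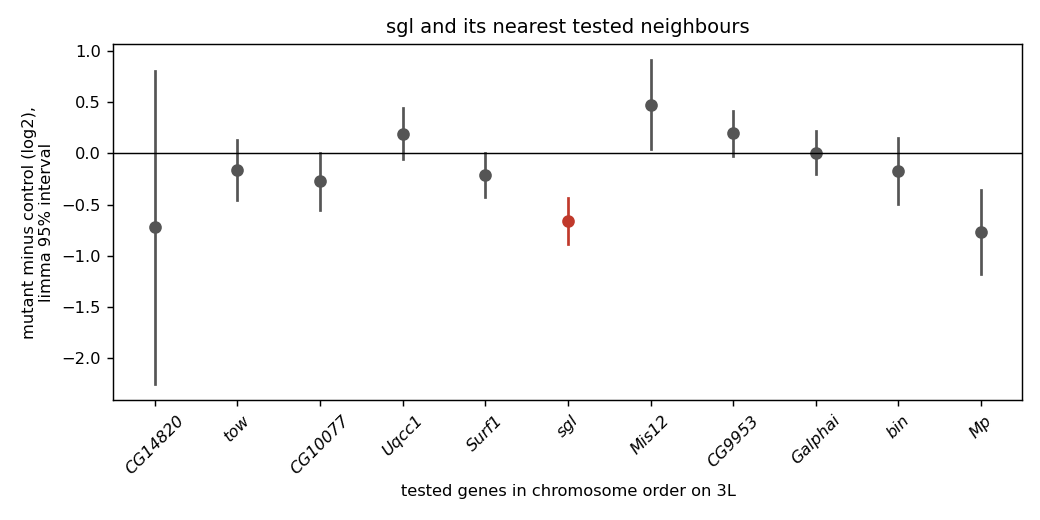
Difference between mutant and control (log2, points) with limma's 95% interval (bars) for sgl (red) and the 5 nearest tested genes on each side (grey), in their order on 3L. The nearest tested genes, Surf1 and Mis12, lie at -0.21 and 0.47, and Mp lies at -0.77.

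The profile of sgl over the 6 arrays was most like those of lncRNA:CR32368 (Pearson r = 0.991), bbg (0.991), CG14868 (0.989), Cyp12c1 (0.986) and Shaw (0.978), among 8883 tested genes and over 6 arrays that all genes share. sgl's groups do not overlap, so likeness to it over 6 arrays selects genes that were lower in the mutant. All 5 had mutant values below all control values, with differences from -1.33 for lncRNA:CR32368, a noncoding RNA gene, to -0.30 for Shaw, a potassium channel gene. bbg (big bang), a PDZ domain gene, had -0.35, CG14868 -0.44 and the cytochrome P450 gene Cyp12c1 -0.74. lncRNA:CR32368, bbg and Cyp12c1 lie on 3L with sgl. Among the other 7 genes of the rule with a probeset, the r with sgl ran from -0.76 for Hs2st to 0.74 for Hs6st.

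**Figure D5:**
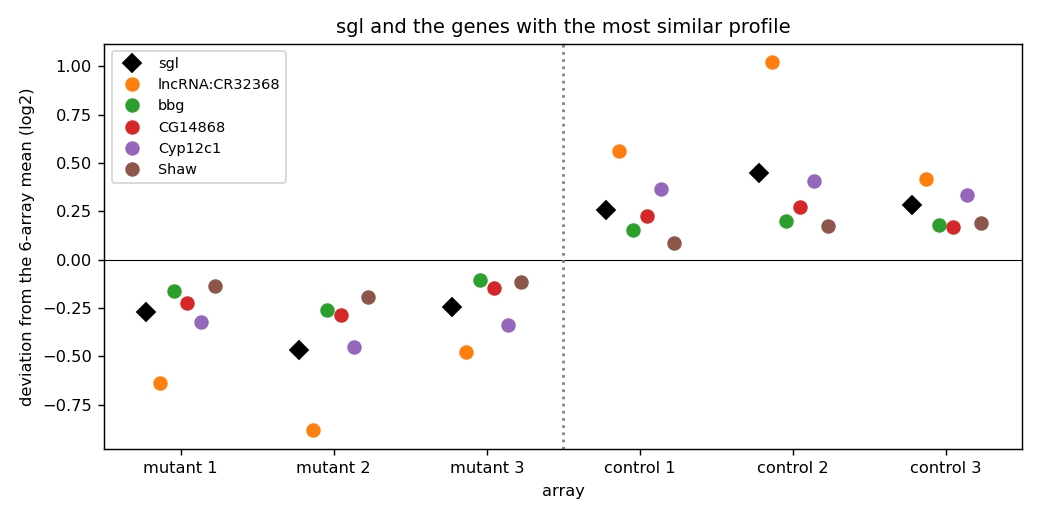
Deviation from each gene's mean over the 6 arrays (log2) for sgl (black diamonds) and the 5 tested genes with the highest Pearson r with it (coloured points), by array. All 6 genes lie below 0 on the 3 mutant arrays and above 0 on the 3 control arrays, with mutant replicate 2 the lowest array for each.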

How the data were processed

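The table deposited by the authors holds a log2 value for each probeset on each array. Per the labels, these came from robust multi-array average (RMA), which subtracts background, equalises the arrays and combines a probeset's probes; no version is given in the sources used here. Equalising the arrays hides any shift common to most transcripts. Presence calls, by which the authors filtered genes per the labels, were not used here, and a filter on level took their place.

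Of 18952 probesets, 183 are control probesets. Platform annotation named 13647 with 1 gene symbol and 402 with several, and 4720 are unnamed here. Of the first, 13544 were matched by gene number to RefSeq (Release 6 plus ISO1 MT), used only for symbols, arm, gene order and whether neighbouring gene models overlap. The 40% with the lowest mean over the 6 arrays were left out, which left 11261 with a mean of at least 4.51. limma 3.58.1 (lmFit, eBayes, two-sided, R 4.3.3) compared 3 mutant with 3 control arrays, with Benjamini-Hochberg adjustment over all tested probesets. The step was tested on simulated data. A gene of a list was read by its brightest tested probeset. Figures used matplotlib 3.10.9 in Python 3.11.15.

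The members and lists were chosen with earlier results of these data known. All probesets of the members were named, up to 3 genes of smallest p per list and some further list members, the 5 nearest tested genes on each side of sgl and the 5 with the highest Pearson r with it. Alternatives were other filters, quantile normalization, centring of arrays, array weights, a replicate block, a trended robust prior and leaving out each array; their use on list medians was added after seeing the data. No probe or gene sequences were used here.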

Additional observations from a re-analysis of the deposited data

How the results depend on the processing

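The number of pathway probesets called was 1, that of sgl, with all 6 arrays, and also with no filter, with the 20% dimmest left out, under quantile normalization, with array weights and with a trended robust prior. It was 0 with array medians centred (limma adjusted p of sgl 0.0512), 0 with the replicate block (0.188) and between 0 and 0 without any 1 array (0.0539 to 0.215). The difference of sgl stayed between -0.74 and -0.59 in all 13 alternatives. The numbers of probesets called over the whole table were 62 in the main setting, 232 with array weights, 28 with the replicate block and 12 to 84 with 1 array left out. Correlations of same-numbered deviations were 0.053, -0.19 and 0.32, and 1 of 3 mutant arrays correlated best with the control of its own number. The 0.32, of replicate 3, was the highest between any mutant and any control array. So few arrays cannot show whether the replicate numbers pair them, and the loss of the sgl call with the block stands. None of the other 7 genes and none of the 50 further pathway genes was called in any of the 13 alternatives, with smallest adjusted p-values for the 7 from 0.194 to 0.979. The sign changed in 4 alternatives for ttv, in 1 for botv and in 1 for dlp. Of 1469 values under the alternatives (113 probesets of list genes, neighbours and genes like sgl), 1448 kept their side of the threshold. Only lncRNA:CR32368 and Cyp12c1 among them were called in the main setting, so the other probesets had no call to lose. The calls of these genes were lost 13 times in all. lncRNA:CR32368 lost its call with the replicate block and without any 1 array. Cyp12c1 lost its call with the block and without any 1 array except control replicate 1. A call was gained 8 times, 6 of them with array weights. The causes were not tested.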

Other observations

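The perlecan gene trol, an X-linked core protein of basement membranes, is read by 8 probesets, of which 4 were tested. Their differences, mutant minus control, were -0.086, -0.18, -0.091 and -0.050, with limma adjusted p-values from 0.716 to 0.876, and control replicate 1 was the highest array on all 4. The aminotransferase gene Gfat1, at the start of the route to N-acetylglucosamine, is read by 2 tested probesets, with 0.070 on the brighter and 0.37 on the dimmer one (limma adjusted p = 0.840 and 0.606). Hs3st-A, a relative of Hs3st-B, was too dim to be tested, with 3.48, 3.51 and 3.55 in mutants and 3.67, 3.95 and 3.82 in controls.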
